A study of Mus musculus with 12 samples.

Results

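Collagen chains are the polypeptides that combine in threes into the collagen triple helix. The chains described here are every gene symbol of the mouse count tables that is written as Col, a number, a and a number, with no other criterion. That rule found 44 of the 55742 symbols present in either table: 44 of the 55367 symbols counted with apoptotic cells, and 43 of the 54957 symbols counted without them, the difference being Col13a1. All 44 are protein-coding genes in GENCODE vM21.

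RNA was sequenced from primary macrophages grown from the bone marrow of the tibia of mice aged 6 to 8 weeks. Cultures of 4 kinds were compared, with 3 libraries of each. KO macrophages came from Kif13b-/- mice, which the genotype labels also call a knock down, and WT macrophages came from wild-type mice. Kif13b encodes a kinesin motor. The KO + AC and WT + AC cultures were macrophages of the same pair of genotypes kept for 90 min with dying cells of the human Jurkat line, written AC for apoptotic cells, at 5 of them per macrophage. Jurkat cells derive from a T cell leukaemia, and macrophages engulf cells that die in this way. The treatment labels of the cultures without AC give the serum of the medium as 12, 13 and 14% for KO libraries 1, 2 and 3 and as 10, 10 and 11% for WT libraries 1, 2 and 3, so that serum and genotype cannot be told apart if these entries are correct. The labels give neither the strain nor how the Kif13b allele was made. They do not say that replicate libraries are from different mice, and p-values here measure the spread between libraries.

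Fibrillar collagens (types I, II, III, V, XI, XXIV and XXVII) assemble into the fibrils of connective tissue, type IV chains form the network of basement membranes, and type VI chains form beaded filaments around cells. FACIT chains attach to the surface of fibrils, multiplexins sit in or near basement membranes, and transmembrane collagens span the cell surface. Fibroblasts and other stromal cells are the best known source of fibrillar collagen, whereas macrophages are better known for taking up and degrading it, and for type VI and type VIII chains that they can also make.

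Libraries held 18351051 to 18770757 counts in KO, 18256622 to 18461359 in WT, 17160248 to 17285594 in the KO + AC set and 17000976 to 17256902 in WT + AC. The number of symbols with at least 1 count was 31787 to 32801 over the 6 libraries with AC, against 18335 to 18540 over the 6 without. The cultures with and without AC were deposited in separate tables, so that AC and table cannot be told apart. Kif13b itself had 281, 345 and 424 counts in KO libraries, against 599, 546 and 535 in WT libraries (log2 fold change -0.59, adjusted p = 0.0087 by edgeR's quasi-likelihood test; 0.0624 without KO library 1). In the other table it went against the label: the libraries labelled KO + AC had 1697, 1697 and 1721 counts, against 1600, 1561 and 1634 in WT + AC libraries (log2 fold change 0.13, adjusted p = 0.0261, and 0.0612 to 0.147 on leaving out KO + AC library 1, KO + AC library 2 or WT + AC library 2). Every direction given below for the libraries labelled KO + AC rests on a label that Kif13b does not bear out. In a fit of the 12 libraries Kif13b was itself higher with AC. Its log2 fold change was 1.23 in WT + AC against WT and 1.97 in libraries labelled KO + AC against KO. After a length and GC correction the WT value was -0.16. The part of the human cells' RNA in the Kif13b counts was not tested. The libraries without AC kept much the same order from chain to chain. Of the 22 chains tested without AC, KO library 3 was the highest KO library in 17 and KO library 1 the lowest in 19, and WT library 1 was the highest WT library in 19 and WT library 3 the lowest in 15.

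To show what lies before the start sites of chains that the results turn on, 4 stretches of 250 bases directly upstream of the gene start are printed here 5′ to 3′ on the gene's own strand (RefSeq, GRCm38.p6). Capitals mark, on either strand, the CCAAT box, the TATA box (letters TATAAA), the GC box (letters GGGCGG) and an AP-1 site (letters TGACTCA). In places 2 GC boxes overlap. Col3a1 had the largest difference between KO and WT libraries among the fibrillar chains, Col8a2 had the largest of all 22 chains tested, Col6a3 is the type VI chain that differed in both genotype comparisons, and Col24a1 had the largest difference between libraries labelled KO + AC and WT + AC libraries.
Col3a1, chr1:45311288-45311537, plus strand: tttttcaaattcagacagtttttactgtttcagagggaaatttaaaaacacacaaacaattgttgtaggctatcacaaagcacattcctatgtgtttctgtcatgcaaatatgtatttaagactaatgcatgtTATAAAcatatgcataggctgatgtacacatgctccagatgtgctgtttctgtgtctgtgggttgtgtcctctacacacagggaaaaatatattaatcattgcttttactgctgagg
Col8a2, chr4:126286544-126286793, plus strand: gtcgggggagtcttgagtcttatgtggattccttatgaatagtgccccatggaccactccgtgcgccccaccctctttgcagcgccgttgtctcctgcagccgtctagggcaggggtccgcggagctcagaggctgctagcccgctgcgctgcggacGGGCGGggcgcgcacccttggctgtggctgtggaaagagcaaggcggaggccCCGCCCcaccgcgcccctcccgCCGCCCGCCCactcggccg
Col6a3, chr1:90843972-90844221, minus strand: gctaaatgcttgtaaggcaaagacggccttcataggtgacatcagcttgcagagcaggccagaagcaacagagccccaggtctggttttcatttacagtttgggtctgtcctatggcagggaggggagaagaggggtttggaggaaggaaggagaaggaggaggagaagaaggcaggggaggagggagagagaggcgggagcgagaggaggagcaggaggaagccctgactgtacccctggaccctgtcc
Col24a1, chr3:145292222-145292471, plus strand: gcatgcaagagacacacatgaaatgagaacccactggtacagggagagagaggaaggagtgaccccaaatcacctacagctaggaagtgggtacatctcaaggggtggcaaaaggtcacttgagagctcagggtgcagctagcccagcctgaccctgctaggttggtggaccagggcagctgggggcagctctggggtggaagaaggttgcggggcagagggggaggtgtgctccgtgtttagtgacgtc
The Col3a1 window holds 1 TATA box, the Col8a2 window holds 4 GC boxes, and the other two hold none of the 4 motifs. A window was found for 35 of the 44 chains, with 38 windows in all. The GC box occurred in 57.9% of those collagen windows and in 32.7% of all 32851 mouse windows. The other 3 motifs occurred at nearer shares, with the CCAAT box in 34.2% of collagen windows and 33.8% of all windows, the TATA box in 13.2% and 12.4%, and the AP-1 site in 2.63% and 4.46%. These are matches of letters and not evidence of binding.

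Collagen made up a small part of each library. The chains together took 0.0725, 0.0833 and 0.111% of the counts in KO libraries 1, 2 and 3, against 0.0812, 0.0671 and 0.0605% in WT libraries, so that the groups overlapped. In libraries labelled KO + AC the share was 0.0460, 0.0435 and 0.0468%, below the 0.0648, 0.0666 and 0.0706% of WT + AC libraries in every library. Of the collagen counts, types I and III took 58.99% in KO, 55.3% in WT, 51.6% in libraries labelled KO + AC and 54.6% in WT + AC libraries (means of 3). Type VI chains took 27.2% in KO and 31.1% in WT, and 19.2% in libraries labelled KO + AC and 20.6% in WT + AC. Chains outside types I, III, IV, V and VI took 3.55% in KO and 3.85% in WT, and 12.0% in libraries labelled KO + AC and 9.88% in WT + AC.

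Levels of different chains were compared per length. The unit is CPM, the count scaled to the size of the library, per kb of the longest protein-coding transcript. In KO libraries Col1a2 stood highest at 59.8 ± 8.38 (SD, n = 3, as for all means below), followed by Col6a1 at 29.8 ± 3.30, Col6a2 at 23.7 ± 1.83, Col1a1 at 22.5 ± 5.67 and Col3a1 at 16.1 ± 3.10. WT libraries had Col1a2 at 43.4 ± 5.72, Col6a1 at 26.5 ± 2.26, Col6a2 at 18.96 ± 3.42, Col1a1 at 15.8 ± 2.88 and Col3a1 at 8.02 ± 1.17. The order of these 5 chains was the same in both groups. Library values of the neighbours Col6a2 and Col1a1 overlapped in both groups, those of Col1a1 and Col3a1 overlapped in KO and not in WT, and those of the other neighbours did not overlap. After these came Col5a2 at 5.12 ± 1.17 in KO and 3.41 ± 0.318 in WT, and Col4a1 at 3.37 ± 0.510 in KO and 2.21 ± 0.232 in WT. With AC, Col1a2 and Col1a1 led both groups: 20.7 ± 0.696 and 18.2 ± 0.451 in libraries labelled KO + AC, and 31.9 ± 1.58 and 27.5 ± 2.09 in WT + AC libraries. Col6a1 followed at 8.90 ± 0.378 in libraries labelled KO + AC and 14.3 ± 0.516 in WT + AC, and Col6a2 at 7.49 ± 0.542 in libraries labelled KO + AC and 11.0 ± 0.470 in WT + AC. At the low end, 7 chains had no count in any KO library (Col2a1, Col9a1, Col10a1, Col17a1, Col19a1, Col25a1 and Col26a1) and 5 had none in any WT library (Col2a1, Col9a1, Col19a1, Col25a1 and Col28a1), where 3 counts per library is the limit that a count of 0 allows.

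**Figure D1:**
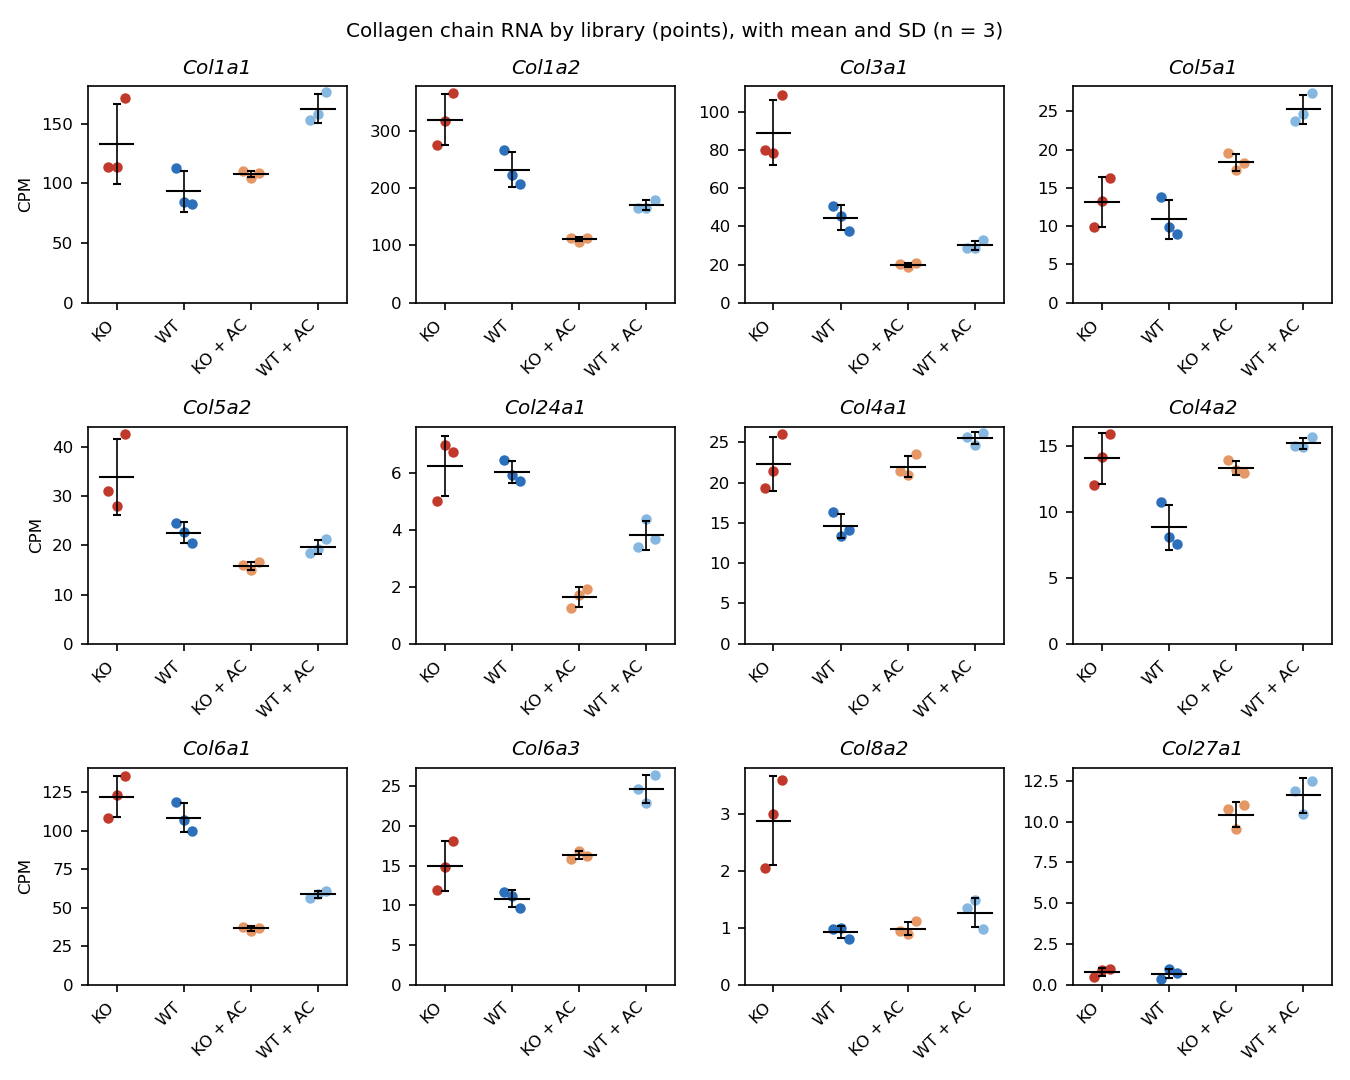
Level of 12 collagen chains in each library, as CPM scaled within each table, with the KO, WT, KO + AC and WT + AC libraries as points from left to right and the mean and SD of 3 libraries as bars. The KO points lie above the WT points for Col3a1, Col4a1 and Col8a2, and the points of the libraries labelled KO + AC lie below those of WT + AC for Col1a1, Col1a2, Col6a1 and Col24a1.

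Without AC, collagen chains that changed were higher in KO macrophages than in WT macrophages. Of the 43 chains, 22 passed the filter on low counts and 9 of these rose, with no chain lower. They were the fibrillar chains Col1a1, Col1a2, Col3a1 and Col5a2, the basement membrane chains Col4a1 and Col4a2, the filament chain Col6a3, the network chain Col8a2 and the FACIT chain Col12a1 (edgeR quasi-likelihood test, Benjamini-Hochberg adjustment over 12640 genes, adjusted p under 0.05). Over all genes tested 16.2% were called, 7.94% higher and 8.24% lower. With library totals in place of the composition-based scaling (TMM) the same fit called 356 genes higher and 1268 lower. The median log2 fold change was 0.39 over the 22 chains and 0.024 over all genes, and 20 of 22 chains had a positive value. The 21 chains that were not tested had at most 15 counts in a library, and the highest group mean among them was 0.601 CPM, of Col8a1 in KO.

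Type I and type III chains carried most of the difference in counts. Col3a1, the chain of the homotrimeric type III collagen of elastic tissues, measured 80.0, 78.8 and 109 CPM in KO libraries, against 50.7, 45.4 and 37.7 CPM in WT libraries. Every KO library was above every WT library, and the fold change was 2.003 (log2 1.00, SE 0.14, adjusted p = 0.00013). Col1a1, which contributes a pair of the chains of the type I trimer, measured 114, 114 and 172 CPM in KO libraries and 113, 84.3 and 82.8 CPM in WT libraries. KO library 3 stood apart from the other two, and WT library 1 reached almost to the lower KO libraries (log2 0.51, SE 0.15, adjusted p = 0.0288, and 0.169 without KO library 3, 0.0624 without KO library 1, 0.0934 without WT library 2 and 0.137 without WT library 3). After the length and GC correction Col1a1 had 0.39 (adjusted p = 0.111). Col1a2, the remaining chain of that trimer, measured 276, 317 and 366 CPM in KO and 266, 223 and 207 CPM in WT. Its groups were separated by the gap between KO library 1 and WT library 1 (log2 0.46, SE 0.14, adjusted p = 0.0255, and 0.0544 without KO library 3, 0.102 without WT library 2 and 0.155 without WT library 3).

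Type V chains join type I fibrils and limit their width. Col5a2 measured 31.1, 28.02 and 42.8 CPM in KO libraries, above the 24.6, 22.8 and 20.4 CPM of WT libraries (log2 0.59, SE 0.15, adjusted p = 0.0136, and 0.0545 without KO library 1 and 0.0679 without WT library 3). Its partner Col5a1 did not pass, with 9.83, 13.3 and 16.3 CPM in KO and 13.8, 9.84 and 8.98 CPM in WT, values that overlapped (log2 0.27, SE 0.18, adjusted p = 0.3). Col24a1, a fibrillar chain known from developing bone and eye, measured 5.03, 7.004 and 6.74 CPM in KO and 6.47, 5.95 and 5.72 CPM in WT (log2 0.051, SE 0.17, adjusted p = 0.858). The 2 other fibrillar chains tested, Col11a2 and Col27a1, had adjusted p of 0.408 and 0.745.

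Basement membrane and network chains were also higher in KO. Col4a1, which pairs with Col4a2 in the most widespread type IV trimer, measured 19.4, 21.5 and 25.98 CPM in KO libraries, against 16.3, 13.3 and 14.2 CPM in WT libraries (log2 0.61, SE 0.14, adjusted p = 0.00989). Col4a2 measured 12.1, 14.2 and 15.9 CPM in KO, against 10.8, 8.11 and 7.59 CPM in WT (log2 0.67, SE 0.16, adjusted p = 0.0111, and 0.0715 without WT library 3). Neither chain's groups overlapped. The pair lies head to head on chromosome 8 (Col4a1 at 11198423 to 11312826 on the minus strand, Col4a2 at 11312805 to 11449287 on the plus strand, GRCm38), and their annotated exons share 22 bases on opposite strands, where reads counted without strand could fall to either. The X-linked pair did not pass. Col4a5 measured 4.86, 8.74 and 9.15 CPM in KO and 6.68, 5.26 and 5.29 CPM in WT (adjusted p = 0.158), values that overlapped. Col4a6 measured 2.28, 3.36 and 3.40 CPM in KO and 1.85, 2.26 and 1.76 CPM in WT (log2 0.62, adjusted p = 0.0591), with Col4a6 groups that did not overlap. Col8a2, a short network chain known from the cornea, had the largest fold of all chains tested: 2.05, 3.01 and 3.61 CPM in KO, against 0.976, 1.00 and 0.802 CPM in WT (log2 1.64, SE 0.27, adjusted p = 0.000646). These were 35, 52 and 69 counts in KO libraries, against 19, 19 and 15 in WT libraries.

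Of the type VI chains, Col6a3 passed and its partners in the type VI trimer did not. Col6a3 measured 11.9, 14.9 and 18.1 CPM in KO libraries, against 11.7, 11.2 and 9.67 CPM in WT libraries (log2 0.47, SE 0.16, adjusted p = 0.048). That call was lost on leaving out any single library, with adjusted p from 0.0545 to 0.212. Col6a1 measured 108, 123 and 135 CPM in KO and 118, 107 and 100.1 CPM in WT (log2 0.17, SE 0.12, adjusted p = 0.344). Col6a2 measured 101, 116 and 115 CPM in KO and 105, 86.3 and 73.3 CPM in WT (log2 0.32, SE 0.13, adjusted p = 0.0921). Values of both overlapped between the groups.

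Among chains that attach to fibrils or basement membranes, Col12a1, a long FACIT of tendon and other loaded tissue, measured 2.28, 2.60 and 4.39 CPM in KO libraries and 2.31, 1.47 and 1.4965 CPM in WT libraries. It passed although the groups overlapped (log2 0.82, SE 0.26, adjusted p = 0.0373), and not without KO library 1 (0.0605), KO library 3 (0.222), WT library 2 (0.105) or WT library 3 (0.136). Col16a1, another FACIT, measured 2.05, 3.59 and 3.97 CPM in KO and 3.03, 2.26 and 2.35 CPM in WT (adjusted p = 0.326). The multiplexins, whose tails give rise to the fragments known as restin and endostatin, did not pass either. Col15a1 measured 3.69, 3.88 and 4.02 CPM in KO and 4.32, 3.53 and 3.37 CPM in WT (adjusted p = 0.88), and Col18a1 measured 5.62, 9.43 and 7.89 CPM in KO and 8.22, 5.89 and 5.08 CPM in WT (adjusted p = 0.368).

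In CPM scaled by TMM, groups did not overlap in 9 of the 22 chains and in 33.6% of all genes. Overlap of single chains as shares of library totals was not counted, here or above. Of all genes 16.4% were higher in KO without overlap and 17.2% lower, and all 9 of the chains were higher. Col3a1 and Col8a2 kept their call in each of 15 alternatives run and Col4a1 in 14. Of the 9, Col3a1 and Col8a2 alone passed with library totals in place of TMM, under which the median was 0.28 over the chains and -0.084 over all genes. Leaving out one library at a time gave 3 (without WT library 3) to 10 (without WT library 1) chains called, with 5 called without KO library 1 and 5 without KO library 3.

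**Figure D2:**
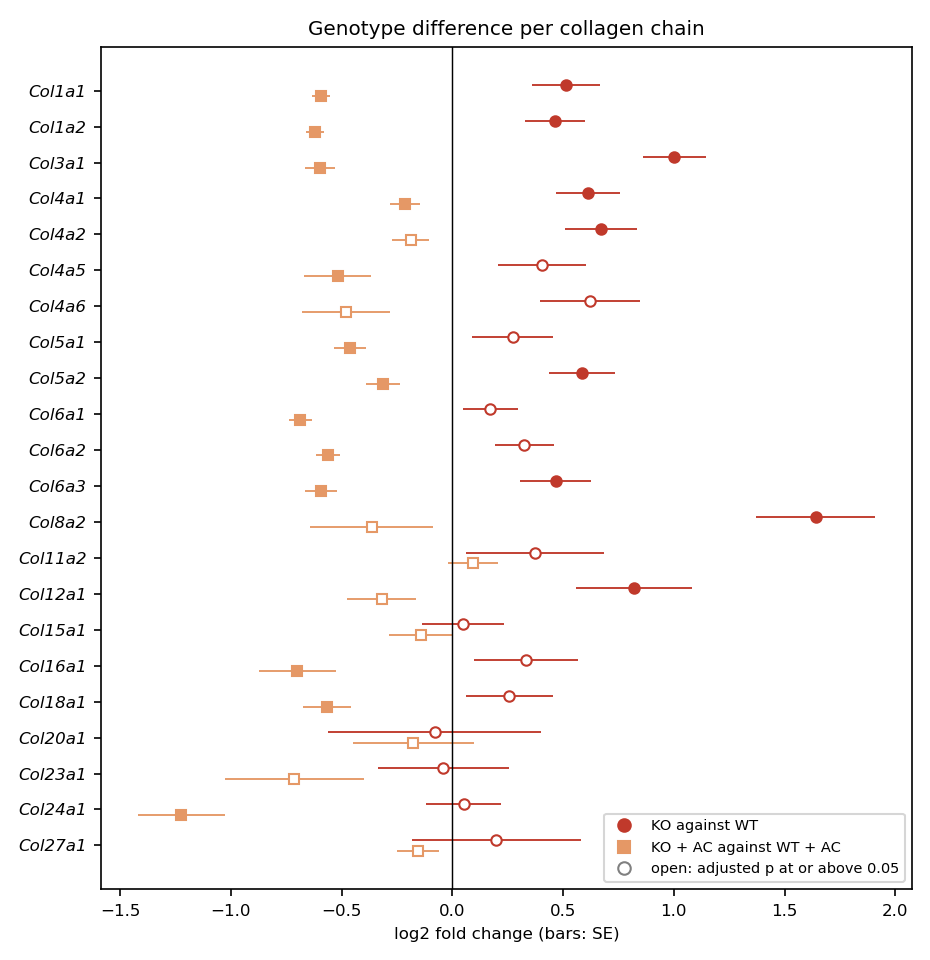
Log2 fold change with its SE for the 22 chains tested without AC, in KO against WT and in the libraries labelled KO + AC against WT + AC, with filled symbols for adjusted p under 0.05. The filled points without AC run from 0.46 to 1.64 and the filled points with AC lie below 0.

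Some RNA markers of other cells moved alongside, where 7.94% of all genes tested were called higher and 8.24% lower. Of 10 fibroblast and stromal markers, 5 of 10 tested rose in KO and none fell, among them Dpt (log2 2.45, adjusted p = 0.000542), a matrix protein that binds decorin, Lum (1.18, 0.00916) and Thy1 (1.14, 0.0171). The list summed to 248 to 317 CPM in KO libraries and 216 to 248 CPM in WT libraries. Of 7 smooth muscle and mural markers, 2 of 3 tested rose, Acta2 (1.68, 9.08e-08) and Myl9 (1.52, 6.46e-05), with sums of 151 to 221 CPM in KO and 56.7 to 67.7 CPM in WT. One of 5 tested mesothelial and epithelial markers rose, Upk3b (0.81, 0.000818), but the median log2 fold change of the 5 was -0.35. That list summed to 56.0 to 63.3 CPM in KO and 39.0 to 49.2 CPM in WT. Bone and cartilage had little signal. Alpl (1.12, 0.00386) was the 1 of 2 tested osteoblast markers that rose, and sums were 5.38 to 7.21 CPM in KO and 3.58 to 5.09 CPM in WT. Ibsp and Bglap2 had no count in any KO or WT library. The cartilage genes Acan and Hapln1 had none either, with chondrocyte marker sums of 2.28 to 4.18 CPM in KO and 2.42 to 3.60 CPM in WT. Endothelial markers summed to 5.61 to 7.84 CPM in KO and 4.68 to 5.65 CPM in WT, and none of 2 tested passed. Macrophage markers stood far higher, at 26182 to 32910 CPM in KO and 25926 to 27943 CPM in WT, and 1 of 8 fell, Itgam (-0.46, 0.0167). The 1 T cell marker tested did not pass. The part of these other cells in the collagen values was not tested, and in bulk RNA fewer cells of a type and less RNA per cell cannot be told apart.

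**Figure D3:**
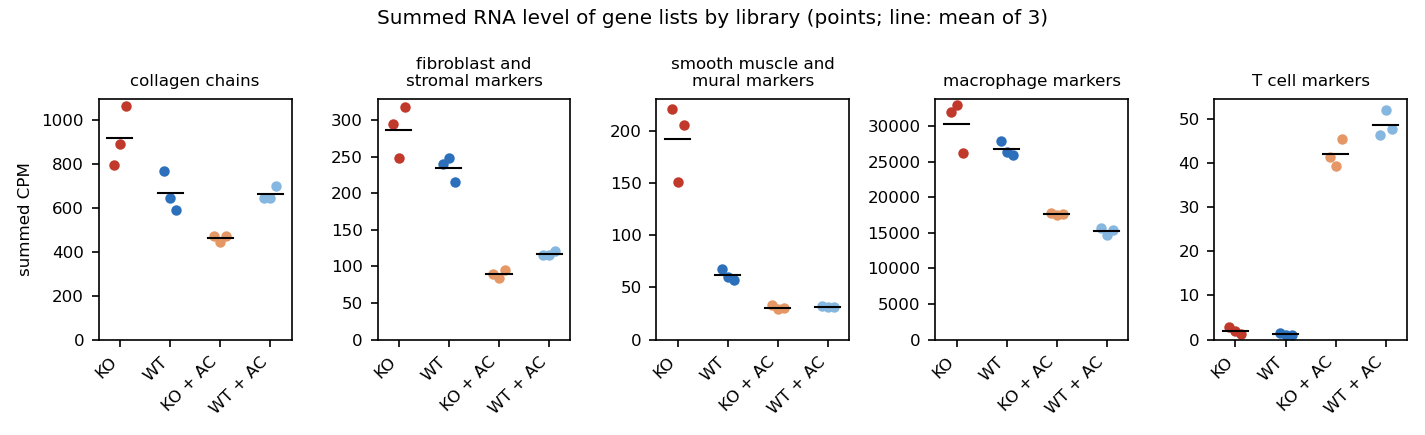
Summed CPM of the collagen chains and of fibroblast and stromal, smooth muscle and mural, macrophage and T cell markers in each library. The KO, WT, KO + AC and WT + AC libraries are points from left to right, with the mean of 3 libraries as a line. Collagen sums were 796 to 1067 CPM in KO and 593 to 771 CPM in WT, and 444 to 473 CPM in libraries labelled KO + AC and 645 to 702 CPM in WT + AC. These sums are scaled by TMM. As shares of library totals, KO (0.0725 to 0.111%) and WT (0.0605 to 0.0812%) overlapped.

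With AC the collagen chains that changed were lower in libraries labelled KO + AC than in WT + AC libraries. Of 44 chains, 34 were tested, 13 fell and none rose, where 11.3% of all 16467 genes tested were called, 6.58% higher and 4.75% lower (edgeR, adjusted p under 0.05). Over all genes the split moved with the setting, to 1792 higher and 626 lower after a length and GC correction, 648 and 1383 with library totals, and 895 and 344 with DESeq2. The median log2 fold change was -0.34 over the 34 chains and -0.020 over all genes. The groups of 16 chains did not overlap, each lower in libraries labelled KO + AC. Over all genes 26.4% did not overlap, 13% higher and 13.4% lower.

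The type I chains fell to 110.2, 105 and 109 CPM of Col1a1 in libraries labelled KO + AC, against 153, 158 and 177 CPM in WT + AC libraries (log2 -0.59, SE 0.042, adjusted p = 4.98e-14). Col1a2 measured 113, 107 and 113 CPM in libraries labelled KO + AC and 165, 166 and 180.2 CPM in WT + AC (log2 -0.62, SE 0.039, adjusted p = 3.81e-17). Col3a1 measured 20.1, 18.8 and 20.7 CPM in libraries labelled KO + AC, against 28.6, 28.9 and 32.7 CPM in WT + AC (log2 -0.60, SE 0.068, adjusted p = 2.9e-09). The 3 chains differed by nearly the same factor, and within each group the libraries lay close together. Col5a1 measured 19.5, 17.3 and 18.2 CPM in libraries labelled KO + AC and 23.7, 24.7 and 27.4 CPM in WT + AC (log2 -0.46, adjusted p = 3.75e-06). Col5a2 measured 15.9, 15.04 and 16.6 CPM in libraries labelled KO + AC and 18.6, 19.2 and 21.4 CPM in WT + AC (log2 -0.31, adjusted p = 0.00352, and 0.0542 without WT + AC library 3). Col24a1 had the largest fold among the chains called, with 1.25, 1.72 and 1.94 CPM in libraries labelled KO + AC and 3.40, 4.39 and 3.69 CPM in WT + AC (log2 -1.22, SE 0.20, adjusted p = 7.19e-06). No overlap was seen in any of these 6 chains.

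The remaining fibrillar chains and Col7a1 did not pass. Col27a1, a fibrillar chain of cartilage, measured 10.8, 9.53 and 11.0 CPM in libraries labelled KO + AC and 11.9, 10.4 and 12.5 CPM in WT + AC (adjusted p = 0.353). Col11a2 measured 7.73, 7.40 and 8.05 CPM in libraries labelled KO + AC and 6.73, 6.96 and 8.01 CPM in WT + AC (adjusted p = 0.687), and Col2a1, the main cartilage chain, 4.87, 3.61 and 4.41 CPM in libraries labelled KO + AC and 2.93, 4.22 and 4.90 CPM in WT + AC (adjusted p = 0.794). Col5a3 measured 3.69, 3.73 and 3.88 CPM in libraries labelled KO + AC and 4.39, 3.99 and 4.21 CPM in WT + AC (adjusted p = 0.6). Col7a1, the chain of the fibrils that anchor the epidermis, measured 1.90, 2.19 and 3.06 CPM in libraries labelled KO + AC and 2.46, 2.05 and 1.67 CPM in WT + AC (adjusted p = 0.615).

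All 3 type VI chains with a high level fell. Col6a1 measured 37.7, 34.8 and 37.1 CPM in libraries labelled KO + AC, against 56.5, 58.9 and 60.7 CPM in WT + AC (log2 -0.69, SE 0.050, adjusted p = 6.95e-15). Col6a2 measured 37.5, 32.5 and 34.5 CPM in libraries labelled KO + AC, against 53.4, 49.1 and 51.7 CPM in WT + AC (log2 -0.56, SE 0.054, adjusted p = 3.2e-11). Col6a3 measured 15.9, 16.9 and 16.2 CPM in libraries labelled KO + AC, against 24.7, 22.8 and 26.4 CPM in WT + AC (log2 -0.59, SE 0.073, adjusted p = 2.26e-08).

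Of the type IV chains, Col4a1 and Col4a2 differed less than the abundant type VI chains above. Col4a1 measured 21.5, 20.96 and 23.5 CPM in libraries labelled KO + AC and 25.6, 24.7 and 26.2 CPM in WT + AC (log2 -0.21, adjusted p = 0.0256). Its call was lost in 8 of 13 alternatives, among them leaving out KO + AC library 1 (0.12), KO + AC library 2 (0.161), WT + AC library 1 (0.0737) or WT + AC library 3 (0.0999). Col4a2 measured 13.9, 13.2 and 12.9 CPM in libraries labelled KO + AC and 14.99, 14.9 and 15.7 CPM in WT + AC, without overlap and without passing (log2 -0.19, adjusted p = 0.146). Col4a5 measured 3.86, 3.85 and 3.06 CPM in libraries labelled KO + AC and 5.91, 4.74 and 4.78 CPM in WT + AC (log2 -0.52, adjusted p = 0.0166, and 0.0949 without KO + AC library 3 and 0.13 without WT + AC library 1). Col4a6 measured 1.96, 1.78 and 2.29 CPM in libraries labelled KO + AC and 3.04, 3.14 and 2.25 CPM in WT + AC, which overlapped (adjusted p = 0.116). Of the FACIT chains, Col16a1 measured 3.57, 2.31 and 2.29 CPM in libraries labelled KO + AC and 4.04, 5.13 and 4.09 CPM in WT + AC (log2 -0.70, adjusted p = 0.00409, and 0.0509 without KO + AC library 2). The multiplexin Col18a1 measured 6.60, 6.39 and 7.40 CPM in libraries labelled KO + AC and 9.60, 9.76 and 10.9 CPM in WT + AC (log2 -0.57, adjusted p = 0.000134). Col12a1 measured 3.33, 3.37 and 4.35 CPM in libraries labelled KO + AC and 3.86, 4.74 and 5.18 CPM in WT + AC (adjusted p = 0.208). Col15a1 measured 4.93, 4.32 and 4.23 CPM in libraries labelled KO + AC and 5.45, 4.51 and 4.95 CPM in WT + AC (adjusted p = 0.606). Values of Col12a1 and Col15a1 overlapped between the groups.

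Leaving out one library at a time left 11 to 13 of these chains called, and library totals left 13. A fit of all 12 libraries together, which shares one estimate of the spread with the KO and WT libraries, called 6 (Col1a2, Col3a1, Col6a1, Col6a2, Col6a3 and Col24a1).

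Markers of other cells in the cultures with AC were as follows, where 6.58% of all genes tested were called higher and 4.75% lower. Of 8 tested fibroblast and stromal markers 3 fell and none rose: Pdgfra (log2 -0.69, adjusted p = 3.64e-12), Dcn (-0.33, 0.000318) and Cxcl12 (-0.59, 0.000375), with sums of 83.5 to 94.9 CPM in libraries labelled KO + AC and 115 to 121 CPM in WT + AC. None of 4 tested smooth muscle and mural markers passed, and their sums were 28.9 to 32.8 CPM in libraries labelled KO + AC and 30.9 to 31.9 CPM in WT + AC. Of 8 mesothelial and epithelial markers 2 fell, Wt1 (-0.76, 3.94e-07) and Cdh1 (-0.86, 0.00229), with sums of 18.5 to 19.3 CPM in libraries labelled KO + AC and 25.6 to 26.8 CPM in WT + AC. The 1 chondrocyte marker tested, Sox9, fell (-0.66, 3.72e-05), with sums of 6.70 to 7.64 CPM in libraries labelled KO + AC and 9.64 to 11.3 CPM in WT + AC. Osteoblast markers summed to 6.84 to 7.93 CPM in libraries labelled KO + AC and 7.78 to 9.90 CPM in WT + AC, Bglap and Bglap2 had no count in either group, and the 1 tested did not pass. Endothelial markers summed to 7.43 to 8.402 CPM in libraries labelled KO + AC and 7.49 to 9.85 CPM in WT + AC, and none of 3 tested passed. Macrophage markers summed to 17554 to 17815 CPM in libraries labelled KO + AC and 14656 to 15619 CPM in WT + AC, and 5 of 8 rose, the first being Cd14 (0.32, 2.51e-10). T cell markers summed to 39.2 to 45.4 CPM in libraries labelled KO + AC and 46.3 to 51.9 CPM in WT + AC, with 1 of 6 tested lower, Lck (-0.27, 0.00581). The part of these markers' cells in the collagen values was not tested.

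The genotype comparisons with and without AC share no library, and their difference was tested as an interaction in the 12 libraries. Of 9 chains called without AC and 13 called with AC, 6 were called in both with opposite signs, 66.7% of the first list and 46.2% of the second: Col1a1, Col1a2, Col3a1, Col4a1, Col5a2 and Col6a3. These opposite signs, and the direction of the interaction, hold as far as the KO + AC and WT + AC labels do, and Kif13b had its own interaction of 0.74 the other way. The interaction was called for 18 of 35 chains tested, each more negative with AC than without, where 12.7% of 16810 genes were called, 7.55% higher and 5.13% lower. Its median was -0.83 over the 35 chains and -0.034 over all genes. The fibrillar chains called were Col3a1 (log2 -1.58, SE 0.17, adjusted p = 7.24e-07), Col1a2 (-1.06, 2.49e-05), Col1a1 (-1.08, 0.00217), Col5a2 (-0.88, 0.00215), Col24a1 (-1.25, 0.00231) and Col5a1 (-0.71, 0.0272). All 3 abundant type VI chains were called at -0.83 for Col6a1, -0.86 for Col6a2 and -1.04 for Col6a3, as were 4 of 5 type IV chains at -0.80 to -1.08. Both type VIII chains were called, Col8a2 at -1.98 (adjusted p = 0.00141) and Col8a1, the partner chain, at -2.00 (adjusted p = 0.0183) on 32 and 11 summed counts in KO and WT and 24 and 33 in libraries labelled KO + AC and in WT + AC. Col12a1, Col16a1 and Col18a1 completed the list. Of the fibroblast and stromal markers 6 of 10 tested, and of the smooth muscle and mural markers 2 of 5 tested, were called in the same direction and none in the other, and their part in the collagen values was not tested. Of the 18, 11 kept the call in every alternative run, and the number called was 12 without WT library 2 and up to 18 on leaving out another library.

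The effect of AC itself was set across the tables. In WT + AC against WT, 28 of 35 chains tested were called, 21 higher and 7 lower, and in libraries labelled KO + AC against KO 29 were called, 13 higher and 16 lower. Nearly all genes differed between the tables. Of all genes, 85% were called in WT + AC against WT (48.3% higher and 36.7% lower) and 86.3% in libraries labelled KO + AC against KO (49.6% higher and 36.7% lower). The number of chains called, 80% and 82.9% of those tested, is therefore at the level of all genes. The split depends on the scaling: a length and GC correction gave 12 higher and 18 lower in WT and 12 higher and 22 lower in KO, and library totals gave 26 and 5, and 14 and 10. The median log2 fold change of all genes was 0.25 in WT and 0.32 in KO, -0.32 and -0.27 after the length and GC correction, and 0.66 and 0.76 with library totals.

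Of the 35 chains, 13 had not passed the filter in the table without AC. Among them Col14a1 passed in neither table alone, and the others entered this fit through the libraries with AC. That route can set their direction and enters the counts above. The chains that fell in both were 7. Col1a2 had a log2 fold change of -0.87 in WT + AC against WT and of -1.92 in libraries labelled KO + AC against KO. In the same order Col3a1 had -0.99 and -2.57, Col6a1 -1.31 and -2.14, and Col6a2 -1.201 and -2.06. Without AC, Col6a1 and Col6a2 stood next to Col1a2 in level per length. Col5a2 had -0.62 and -1.496, Col24a1 -1.08 and -2.33, and Col4a5 -0.58 and -1.48 (SE over the 7 chains 0.093 to 0.19, adjusted p at most 0.00545). With library totals the WT + AC against WT calls of Col5a2 (-0.21, adjusted p = 0.177) and Col4a5 (-0.18, 0.42) were lost, and that of Col4a5 also without WT library 1. On the joint scale Col6a1 measured 49.0, 51.4 and 52.5 CPM in WT + AC libraries, against 138, 125 and 116 CPM in WT libraries, and 33.3, 30.6 and 32.8 CPM in libraries labelled KO + AC, against 126, 142 and 158 CPM in KO libraries. Neither pair of groups overlapped.

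Other abundant chains did not fall in both genotypes in this fit. After the length and GC correction Col1a1, Col6a3, Col4a1, Col4a2, Col5a1, Col12a1, Col4a6, Col16a1 and Col18a1 were negative in both. Col1a1 measured 133, 138 and 153 CPM in WT + AC libraries, against 132, 98.0 and 96.0 CPM in WT libraries (log2 0.38, adjusted p = 0.0184, and -0.59 after the length and GC correction). That call was lost without WT library 2, WT library 3 or WT + AC library 3, with adjusted p up to 0.119. In libraries labelled KO + AC it measured 97.3, 92.3 and 96.2 CPM, against 132, 132 and 201 CPM in KO libraries (log2 -0.70, adjusted p = 0.000144, and adjusted p = 0.11 with library totals). Col6a3 measured 21.4, 19.9 and 22.9 CPM in WT + AC, against 13.6, 13.0 and 11.2 CPM in WT (log2 0.76, and -0.73 after the length and GC correction). It measured 14.0, 14.8 and 14.4 CPM in libraries labelled KO + AC, against 13.8, 17.2 and 21.1 CPM in KO, which overlapped (log2 -0.27, adjusted p = 0.0428). This last call was lost in 8 of 20 alternatives, among them DESeq2, the replicate block and leaving out KO library 3 or any KO + AC library, with adjusted p up to 0.333. Col4a1 and Col4a2 were higher in WT + AC than in WT (log2 0.38 and 0.36) and lower in libraries labelled KO + AC than in KO (-0.42 and -0.47), with the WT values at -0.71 and -0.74 after the length and GC correction. The WT call of Col4a2 was lost without WT library 2 or WT library 3 (adjusted p up to 0.0982), and its KO call with library totals (0.816). The KO value of Col4a1 was 0.019 with library totals, and that of Col6a3 0.16. Col8a2 fell in libraries labelled KO + AC against KO (log2 -1.95) and had 0.033 in WT + AC against WT, a difference that the interaction above tests. Col5a1 and Col12a1 rose in WT + AC against WT (0.79 and 0.96, but -0.55 and -0.67 after the length and GC correction). In libraries labelled KO + AC against KO they had 0.080 and -0.16, and -1.15 and -1.92 (adjusted p = 1.53e-10 for Col12a1) after that correction. Col4a6, Col16a1 and Col18a1 fell in libraries labelled KO + AC against KO (-0.98, -0.64 and -0.57). The groups of Col16a1 and Col18a1 overlapped there, both calls were lost with library totals (adjusted p = 0.429 and 0.519), and that of Col16a1 also without KO library 3. In WT + AC against WT the 3 chains had 0.099, 0.37 and 0.23, and -0.99, -0.48 and -0.70 after the length and GC correction.

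Some chains that were scarce without AC stood higher with AC in both genotypes, and others did not. Of 15 chains with a mean under 2 CPM over the 12 libraries, 12 were called higher and none lower in WT + AC against WT. In libraries labelled KO + AC against KO, 10 were called higher and 2 lower. Of all genes, 48.3% and 49.6% were called higher in these comparisons. Of those named here, Col2a1, Col5a3, Col7a1 and Col9a2 had not passed the filter without AC. They entered this fit through the libraries with AC, which can set their direction, so their rise is no separate result. Col27a1 had 203, 183 and 217 counts in WT + AC libraries, against 7, 18 and 13 in WT libraries (log2 3.69), and 181, 161 and 187 counts in libraries labelled KO + AC, against 8, 15 and 18 in KO libraries (log2 3.36). Col2a1 had 50, 74 and 85 counts in WT + AC libraries and 82, 61 and 75 in libraries labelled KO + AC, and no count in any of the 6 libraries without AC. It was at least 19.04-fold higher in WT + AC than in WT and at least 19.4-fold higher in libraries labelled KO + AC than in KO (against a floor of 3 counts per library). Col11a2 rose by log2 2.33 in WT + AC against WT and 2.08 in libraries labelled KO + AC against KO, Col5a3 by 2.77 and 2.60, and Col7a1 by 3.40 and 2.76. Col9a2, a cartilage FACIT, had 87 summed counts in WT + AC and 1 in WT, a ratio of 71.5 with a 95% interval of 12.5 to 2855, and 74 in libraries labelled KO + AC and 3 in KO, a ratio of 19.8 with an interval of 6.51 to 98.0 (exact binomial, counting error only). Libraries with AC held 31787 to 32801 symbols with a count, against 18335 to 18540 without. T cell markers averaged 48.6 ± 2.94 CPM in WT + AC and 1.17 ± 0.249 CPM in WT, and 42.0 ± 3.13 CPM in libraries labelled KO + AC and 2.01 ± 0.792 CPM in KO. The part of the human cells' RNA, and of the wider range of symbols counted, in the values of these chains was not tested.

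**Figure D4:**
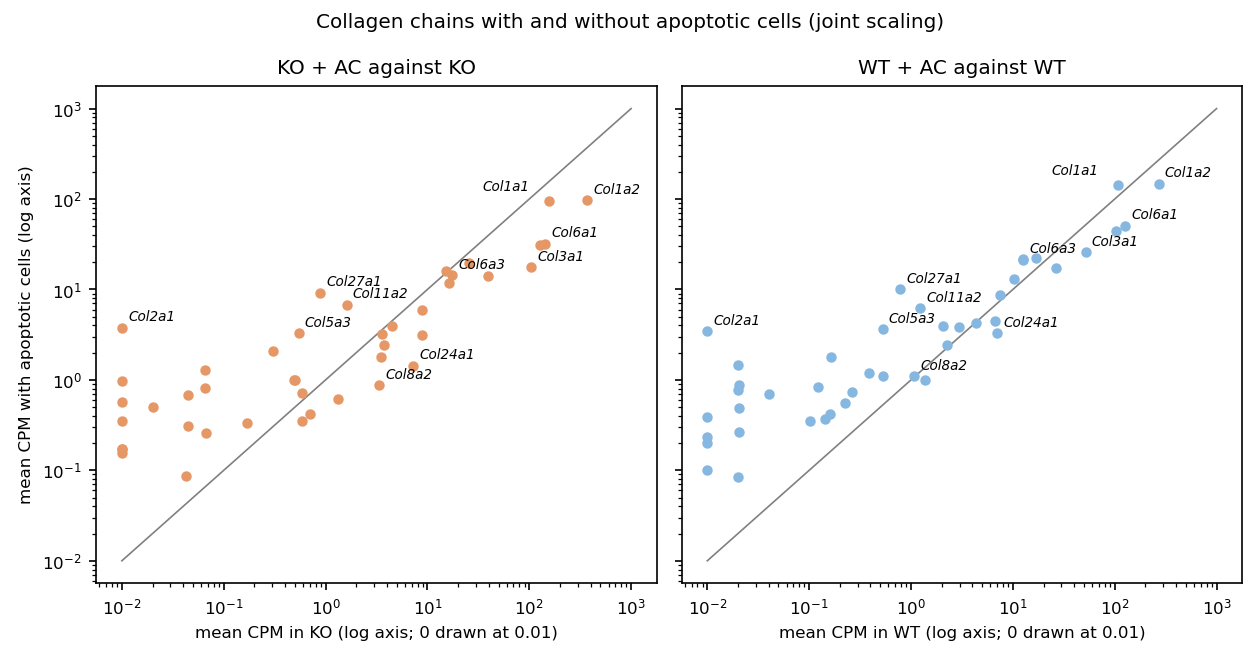
Mean CPM of each collagen chain with AC (vertical axis) against without AC (horizontal axis) on the scale of the 12 libraries together, in KO on the left and WT on the right, on log axes with chains at 0 drawn at 0.01. The abundant chains Col1a2, Col3a1 and Col6a1 lie below the line of equality. Col27a1 and Col2a1, which were scarce without AC, lie above it.

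Ratios of partner chains per length, taken within a library, do not depend on the scaling between libraries. They can depend on effects of length and GC content that differ between the tables. In WT + AC against WT the length and GC correction took Col6a3 from log2 0.76 to -0.73 and Col1a1 from 0.38 to -0.59. No ratio was computed after that correction. Col1a1 to Col1a2 was 0.373 ± 0.0499 in KO and 0.362 ± 0.0211 in WT, and 0.878 ± 0.00948 in libraries labelled KO + AC and 0.861 ± 0.0244 in WT + AC, so that it differed between the tables and overlapped between genotypes. Col6a3 to Col6a1 was 0.0492 ± 0.00487 in KO and 0.0404 ± 0.00154 in WT, and 0.182 ± 0.0136 in libraries labelled KO + AC and 0.170 ± 0.0114 in WT + AC. Col5a2 to Col5a1 was 3.34 ± 0.664 in KO and 2.70 ± 0.380 in WT, and 1.10 ± 0.0609 in libraries labelled KO + AC and 0.991 ± 0.00284 in WT + AC. Other pairs moved little. Col4a1 to Col4a2 was 1.54 ± 0.0595 in KO and 1.63 ± 0.176 in WT, and 1.61 ± 0.144 in libraries labelled KO + AC and 1.64 ± 0.0293 in WT + AC. Col6a1 to Col6a2 was 1.26 ± 0.0704 in KO and 1.41 ± 0.134 in WT, and 1.19 ± 0.0442 in libraries labelled KO + AC and 1.30 ± 0.0862 in WT + AC. Col3a1 to Col1a1 separated KO from WT, at 0.750, 0.736 and 0.677 in KO libraries against 0.478, 0.574 and 0.486 in WT libraries. With AC it was 0.196 ± 0.00625 in libraries labelled KO + AC and 0.197 ± 0.00199 in WT + AC. Col6a3 to Col6a1 also separated KO (0.0445 to 0.0542) from WT (0.0392 to 0.0422), as did Col3a1 to Col1a2 (0.239 to 0.287 and 0.175 to 0.196). Col5a2 to Col5a1 separated libraries labelled KO + AC (1.04 to 1.16) from WT + AC (0.988 to 0.993). No test was run on these ratios.

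**Figure D5:**
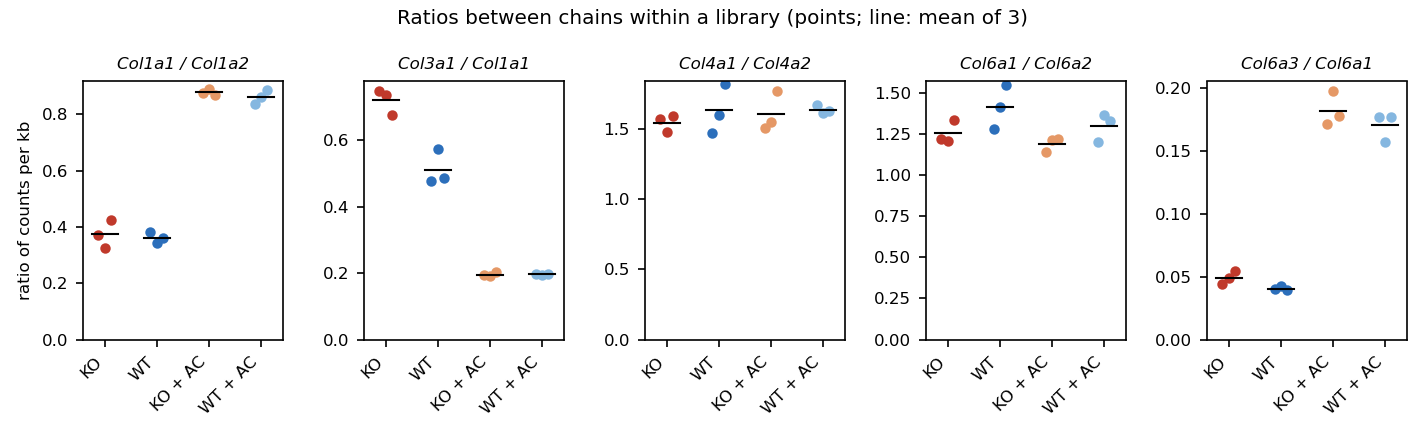
Ratios per length of 5 pairs of collagen chains in each library. The KO, WT, KO + AC and WT + AC libraries are points from left to right, with the mean of 3 libraries as a line. Col1a1 to Col1a2 sits near 0.87 with AC and near 0.37 without AC, while Col4a1 to Col4a2 stays between 1.47 and 1.82 in all 12 libraries.

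Genes that act on collagen after transcription were counted from lists of known members. Over all genes tested, 7.94% were called higher and 8.24% lower without AC, and 6.58% higher and 4.75% lower with AC. No list was tested against these shares. Without AC, 4 of 14 tested genes of hydroxylation and glycosylation rose in KO and none fell: Fkbp10 (log2 0.51, adjusted p = 0.0137), P3h3 (0.61, 0.0158), Ppib (0.44, 0.0365) and P3h4 (0.43, 0.0438), all of them chaperones or partners in the modification of prolines and lysines. With AC, 5 of 14 fell in libraries labelled KO + AC and none rose, among them Fkbp10 (-0.61, 2.1e-05), P3h4 (-0.55, 0.00261), Plod2 (-0.51, 0.000202), a lysyl hydroxylase, and P3h1 (-0.23, 0.014). Serpinh1 (HSP47), the chaperone dedicated to procollagen, led the 3 of 14 folding and secretion genes that rose without AC, at 283 ± 10.1 CPM in KO and 166 ± 24.9 CPM in WT (log2 0.77, adjusted p = 0.000818), with Kdelr3 (0.61, 0.0103) and Sec13 (0.42, 0.0345). With AC, 5 of 14 fell, led by Serpinh1 at 54.4 ± 1.18 CPM in libraries labelled KO + AC and 82.9 ± 2.68 CPM in WT + AC (log2 -0.61, adjusted p = 4.56e-15), Creb3l1 (-0.47, 3.31e-05), Kdelr3 (-0.80, 0.000118) and Sec24d (-0.23, 0.000598). The median over the folding list was -0.012 without AC and -0.14 with AC, against 0.024 and -0.020 over all genes.

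Extracellular steps were similar in direction. The shares over all genes were 7.94% higher without AC and 4.75% lower with AC. Of 10 tested genes of propeptide cleavage and crosslinking 3 rose in KO: Loxl1 (log2 0.83, adjusted p = 0.00219) and Loxl2 (0.51, 0.0439), which are lysyl oxidases, and Pcolce (0.79, 0.000783), which enhances removal of the C-propeptide. With AC, 5 of 12 fell, among them Bmp1 (-0.40, 5.59e-06), the C-propeptidase, Loxl2 (-0.50, 0.00211), Adamts14 (-0.82, 0.00288) and Loxl3 (-0.46, 0.00893). Of 14 tested fibril partners 5 rose in KO, with Dpt and Lum as above, Sparc (0.58, 0.00596) and Fmod (0.60, 0.0169). With AC 9 of 14 fell, led by Sparc (-0.63, 3.68e-16), Hspg2 (-0.47, 1.05e-10), Bgn (-0.51, 5.2e-10) and Nid1 (-0.40, 1.8e-05). Neither list had a call in the other direction. The interaction was called for 3 of 14 hydroxylation genes, 2 of 14 folding genes, 6 of 13 propeptide and crosslinking genes and 3 of 15 fibril partners, all of them lower with AC, where 5.13% of all genes were called lower, and the hydroxylation, folding and fibril partner counts rest on 2 or 3 genes each.

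Genes of collagen uptake, cleavage and TGF-beta signalling moved both ways. Shares over all genes were 7.94% higher and 8.24% lower without AC, and 6.58% higher and 4.75% lower with AC. Of 9 tested receptors and uptake genes 3 fell in KO without AC: Mrc1 (log2 -0.61, adjusted p = 0.00625), the mannose receptor, Itga10 (-1.75, 0.016), a collagen-binding integrin, and Cd36 (-0.49, 0.0265). With AC 2 of 12 fell, the collagen receptor kinases Ddr2 (-0.60, 2.55e-05) and Ddr1 (-0.55, 6.94e-05), and Itgb1 (0.096, 0.0472) rose. Of 12 cleavage genes, Ctsk (0.89, 0.00023) and Ctsl (0.60, 0.0106) rose in KO, and Mmp13 (-0.64, 0.0143) and Mmp12 (-0.47, 0.0377) fell. With AC 6 fell, including Ctsk (-0.47, 5.66e-12), Mmp12 (-0.34, 6.24e-11) and Ctsl (-0.29, 2.29e-09), and Mmp14 (0.29, 3.25e-07), a membrane-bound collagenase, rose. Of 20 TGF-beta pathway genes 4 rose and 2 fell in KO without AC, with Ccn2 (0.84, 0.0038), Acvrl1 (0.64, 0.0064), Skil (-0.68, 0.0119) and Tgfbr1 (-0.43, 0.0356) named here. With AC 2 rose and 4 fell, with Tgfb3 (-0.63, 0.000204), Ltbp3 (-0.22, 0.00041), Ltbp2 (-0.29, 0.00126) and Tgfb1 (0.11, 0.0185).

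The correlation of the log2 fold change in KO against WT with transcript GC content was -0.060 over the 22 chains and 0.567 over 12530 genes, and with log2 transcript length it was 0.022 over the chains and -0.377 over the genes. With AC the correlations with GC content were 0.11 over 34 chains and -0.012 over 16108 genes. A correlation among the chains cannot show whether the chains as a group shift with GC content. After the length and GC correction the median log2 fold change in KO against WT was 0.29 over the chains, against 0.39 before it. Over all genes the corrected median was -0.010, and 8 chains were called. The correlations are descriptions across genes of the same libraries, and genes are not independent replicates.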

How the data were processed

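The authors deposited 2 tables of raw counts per gene symbol, one without and one with AC (per the file headers and values). The RNA was polyA RNA read as pairs (per the labels), and the submitters' processing notes name fastp, HISAT2 2.0.5, DESeq2 1.20.0 and mm10. How reads were assigned to genes, with which annotation and with or without strand, is not given in the sources used here. Of the 44 chains, 10 share exonic bases with a gene on the opposite strand. Every count column was used. KO against WT and KO + AC against WT + AC were fitted within their tables, and the other comparisons on 12 libraries and 54582 shared symbols, with edgeR 4.0.16 (R 4.3.3, limma 3.58.1): filterByExpr, TMM, robust quasi-likelihood tests, two-sided, called at Benjamini-Hochberg adjusted p under 0.05. CPM use the scaling of the same fit. Per-length levels divide by the longest protein-coding transcript of GENCODE vM21 (GRCm38). Depth was similar within tables, and intervals and the floor of 3 counts cover counting error only. The fits were run before use on simulated counts drawn independently for each gene and library. Such counts lack the library order shared by chains without AC, so they do not test calls under it.

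The members and gene lists were chosen with earlier results of these data known. Values per library are given for chains with a mean of at least 2 CPM in a compared group, and from each other list up to 4 called genes with the smallest p are named. Alternatives were DESeq2 1.42.0, edgeR with the size factors of DESeq2, testing every gene, a replicate block, a length and GC correction, a joint or separate fit, leaving out each library, and leaving out KO libraries 1 and 2. Library totals without TMM, and leaving out KO library 3 with WT library 1, were added after seeing the data. Within groups no library pair agreed within sampling noise, but the tables differed. A chi-square statistic per degree of freedom, near 1 for sampling noise alone, compared pairs of libraries within groups. It was 4.96 to 35.5 without AC and 1.40 to 1.93 with AC. Figures were drawn with matplotlib 3.10.9 (Python 3.11.15).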

Additional observations from a re-analysis of the deposited data

Results flagged for a closer look

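The genotype difference with AC differed from that without AC in 18 chains and in Kif13b, by the interaction term of the 12-library fit (edgeR, adjusted over 16810 genes). Fibrillar chains had log2 values of -1.08 for Col1a1 (adjusted p = 0.00217), -1.06 for Col1a2 (2.49e-05), -1.58 for Col3a1 (7.24e-07), -0.71 for Col5a1 (0.0272), -0.88 for Col5a2 (0.00215) and -1.25 for Col24a1 (0.00231). Type IV chains had -0.80 for Col4a1 (0.00159), -0.83 for Col4a2 (0.00332), -0.90 for Col4a5 (0.0278) and -1.08 for Col4a6 (0.0159). Type VI chains had -0.83 for Col6a1 (0.000206), -0.86 for Col6a2 (0.000534) and -1.04 for Col6a3 (0.000419), and type VIII chains had -2.00 for Col8a1 (0.0183) and -1.98 for Col8a2 (0.00141). Col12a1 had -1.11 (0.0202), Col16a1 -1.01 (0.0305) and Col18a1 -0.80 (0.0248). Kif13b went the other way, at 0.74 (0.000815). No group held enough libraries for a test of single outlying libraries.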

How the results depend on the processing

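Over the chains, list genes and Kif13b, 3852 values were recomputed under an alternative. Of these, 3523 stayed on the same side of the threshold, 287 kept direction but no longer passed, and 27 passed newly. Another 15 changed sign and passed in the main fit or in the alternative. Values that passed in neither are among the 3523 whatever their sign. Some of them changed sign, such as Col27a1 in KO against WT (0.20, and down to -0.31 in an alternative). The number of chains called in KO against WT was 9, and 2 with library totals; in KO + AC against WT + AC it was 13, and 6 in the joint fit. On leaving out one library it ranged from 3 to 10 and from 11 to 13, from 26 to 30 in WT + AC against WT, from 26 to 29 in KO + AC against KO, and from 12 to 18 for the interaction. The replicate numbers showed no pairing of the genotypes within a table, and pairing across the tables was not checked. Same-numbered libraries correlated at -0.204, -0.00143 and 0.112 without AC and at 0.0207, -0.0687 and -0.0805 with AC. Of 6 libraries, 1 without AC and 2 with AC correlated best with their own number. A replicate block gave 9, 13, 28, 28 and 18 chains called. Over all genes it called 2496 in KO against WT. After the length and GC correction WT + AC against WT turned to -0.59 for Col1a1, -0.71 for Col4a1, -0.74 for Col4a2, -0.99 for Col4a6, -0.55 for Col5a1, -0.73 for Col6a3, -0.67 for Col12a1, -0.48 for Col16a1, -0.70 for Col18a1 and -0.16 for Kif13b, and KO + AC against KO to -1.15 for Col5a1 and -1.24 for Col6a5. Library totals turned WT + AC against WT to 0.39 for Col15a1, and KO + AC against KO to 0.019 for Col4a1 and 0.16 for Col6a3. The cause was not tested. Over all genes, KO against WT called 2045, against 825 after the length and GC correction, 3999 in the joint fit, 312 to 4166 without one library, 95 without KO libraries 1 and 2 and 4517 without KO library 3 and WT library 1. KO + AC against WT + AC called 1866, against 1239 with DESeq2, 157 in the joint fit and at least 1192 without one library. The interaction called 2132, against 1129 to 4330 without one library, 1043 without KO libraries 1 and 2 and 5242 without KO library 3 and WT library 1. Among genes called in WT + AC against WT the share higher was 56.9%, against 40% after the length and GC correction, 69% with library totals and 67.4% with no filter; in KO + AC against KO it was 57.5%, against 42.3% and 68.8% for the first 2 of these. Depth limits the scarce chains: 21 of 43 without AC and 10 of 44 with AC had too few counts to test.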
